A study of Homo sapiens with 6 samples.

Results

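The genes described here encode the proteins of the mitochondrial ribosome. They were chosen by symbol alone, as every row of the deposited expression table named MRPL or MRPS with a number and, in a few cases, a final A or B. This gave 76 genes out of 15706 in the table, 48 MRPL genes named for the large subunit and 28 MRPS genes named for the small subunit. The RNA came from MDA-MB-231 cells, an established line of triple-negative breast cancer of human origin. The labels give 3 libraries of cells with a guide RNA against MLL3, labelled as an MLL3 knockout and called sgMLL3 here, and 3 libraries of wild-type cells with a non-targeting guide, called sgNT here. All 6 cultures were untreated and grown in DMEM with 10% fetal bovine serum. The labels call the libraries of a group biological replicates 1 to 3 and also number them #1 to #3. They do not tell whether a library stands for its own clone, pool or culture, or for its own guide. The p-values therefore measure only the spread between these libraries.

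The mitochondrial ribosome translates the messenger RNAs of the mitochondrial genome, all of which encode subunits of the oxidative phosphorylation complexes. Its ribosomal RNAs are transcribed inside mitochondria, whereas its proteins are encoded in the nucleus, made in the cytosol and imported. The large subunit holds the peptidyl transferase centre and the exit tunnel of the new protein, and the small subunit holds the decoding centre. Many of its proteins have bacterial counterparts, and others are found only in mitochondria. MLL3, with the approved symbol KMT2C, is a histone methyltransferase that marks enhancers.

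KMT2C itself was not lower at the RNA level in the sgMLL3 libraries. It had 1519, 1660 and 1339 normalized counts in the sgMLL3 libraries, against 1367, 1379 and 1255 in the sgNT libraries (log2 fold change 0.17, SE 0.102, adjusted p = 0.205). A small insertion or deletion at a guide's cut site can leave the RNA level as it was, so this gene total does not check the knockout. The reads recovered from the table numbered 41401044, 49514464 and 48111363 in the sgMLL3 libraries and 41240265, 42024652 and 48244821 in the sgNT libraries. All 6 markers of the cell line had a row, with VIM between 20718 and 24497 normalized counts over the libraries, and KRT19 was lower in the sgMLL3 libraries (-0.28, adjusted p = 0.0144). The hormone receptor genes ESR1 and PGR have no row used here. Of the markers of other cell types, 3 of 5 leukocyte genes had a row and summed to between 222 and 273 normalized counts in the sgMLL3 libraries and between 325 and 362 in the sgNT libraries, and 3 of 6 fibroblast and endothelial genes summed to between 549 and 588 in the sgMLL3 libraries and between 760.4 and 802 in the sgNT libraries. PDGFRB of the last list was lower (-0.48, adjusted p = 0.00456). CD68, LUM, DCN and CDH5 had no row used here, and the part of these markers in the results was not tested.

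The mitochondrial ribosomal protein genes changed little and in both directions. All 76 passed the filter on low values, with means between 94.4 and 12090.3 normalized counts over the 6 libraries. In limma's test across 14618 genes, at a Benjamini-Hochberg adjusted p of 0.05, 12 of the 76 were lower in the sgMLL3 libraries, or 15.8%, against 14.4% of all genes tested. A further 4 were higher, or 5.26%, against 18.9% of all genes tested, and 60 did not pass the test in either direction. The median log2 fold change of the 76 was -0.15, beside -0.017 over all genes tested. Of the 76, 54 lay below zero, where 7553 of the 14618 genes tested did so. In bulk RNA, fewer cells of a type and less RNA per cell cannot be told apart. The counts were 12 lower and 4 higher with edgeR on recovered reads, where 15.3% and 18.3% of all genes were. They were 15 and 6 with DESeq2, where 16.3% and 20.3% of all genes were, and 15 and 6 in the authors' deposited table, where 17.4% and 21.1% were. Leaving out 1 library at a time gave between 2 and 13 members lower and between 1 and 9 higher. The share of all genes called moved with these counts. Without sgNT replicate 1, 13 members were lower and 9 higher, where 19.6% and 22.6% of all genes were. Without sgMLL3 replicate 1 it was 2 lower and 1 higher, where 3.8% and 10.9% of all genes were, and without sgMLL3 replicate 2 it was 2 and 2, where 4.89% and 12.2% were. Without sgNT replicate 3 it was 4 lower and 3 higher, where 7.29% and 14.3% of all genes were, and without sgNT replicate 2 it was 8 and 2, where 9.27% and 15.9% were.

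The large and the small subunit had nearly the same median. It was -0.14 over the 48 large-subunit genes and -0.15 over the 28 small-subunit genes, on the log2 scale of the difference between sgMLL3 and sgNT. In the large subunit 9 genes were lower and 2 higher, and in the small subunit 3 were lower and 2 higher. Of all genes tested, 14.4% were lower and 18.9% higher. Counted without a test, the 3 sgMLL3 values of a gene all lay below its 3 sgNT values in 20 large-subunit and 13 small-subunit genes, together 33 of 76, where 22.4% of all genes tested did so. They all lay above in 3 genes of each subunit, where 23.9% of all genes tested did so. No test of a difference between the subunits was made.

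**Figure D1:**
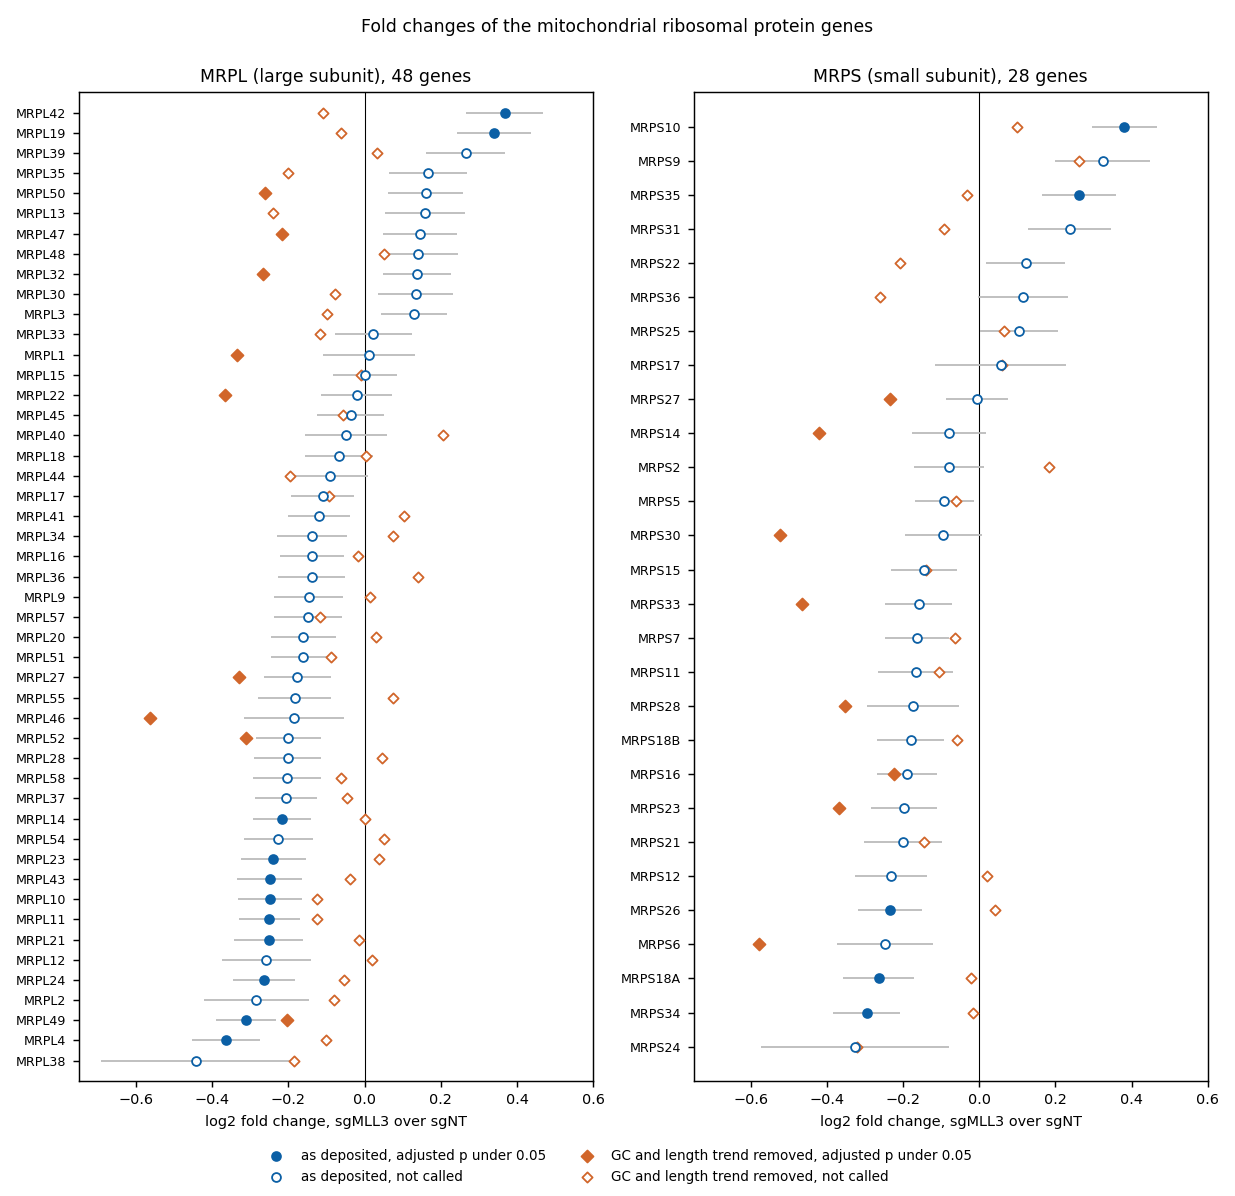
Log2 fold change, sgMLL3 over sgNT, of the 48 MRPL genes (left) and the 28 MRPS genes (right), one gene a row. Blue circles are the values as deposited, with grey bars for their standard error, orange diamonds the values after removal of the trend along GC content and transcript length, and filled symbols passed the test at 0.05. As deposited, 12 genes are filled below zero and 4 above it, and with the trend removed 17 are filled below zero and none above it.

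MRPS10, a protein of the small subunit's head with a bacterial counterpart, was the member with the smallest adjusted p. It had 8552, 8209 and 7793 normalized counts in the sgMLL3 libraries, against 6915, 6219 and 5758 in the sgNT libraries (log2 fold change 0.38, SE 0.0844, adjusted p = 0.0029). Every sgMLL3 value was above every sgNT value. The gene lies at chr6:42206801-42217865, minus strand (GENCODE 29, GRCh38). It was 1 of 3 members, with MRPL4 and MRPL49, that passed the test whichever library was left out. The adjusted p was then at most 0.0251 for MRPS10, 0.0420 for MRPL4 and 0.0494 for MRPL49.

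MRPL42, a large-subunit protein found only in mitochondria, had 2857, 2815 and 2395 normalized counts in the sgMLL3 libraries, against 2375, 1937 and 1950.2 in the sgNT libraries (log2 fold change 0.37, SE 0.102, adjusted p = 0.0115). The groups did not overlap, although the lowest sgMLL3 value and the highest sgNT value nearly met. MRPL19, a large-subunit protein with a bacterial counterpart, had 1961, 1685 and 1657 normalized counts in the sgMLL3 libraries, against 1345, 1426 and 1408 in the sgNT libraries (log2 fold change 0.34, SE 0.0965, adjusted p = 0.0133). MRPS35, a mitochondria-specific protein of the small subunit, had 2183, 1942 and 1780.0 normalized counts in the sgMLL3 libraries, against 1645, 1683 and 1582 in the sgNT libraries (log2 fold change 0.26, SE 0.0962, adjusted p = 0.0444). Neither of these last genes had overlapping groups, and in both the spread was wider among the sgMLL3 libraries. With 1 library left out, the adjusted p of MRPL42, MRPL19 and MRPS35 reached 0.0725, 0.0946 and 0.223.

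The starts of 4 genes, chosen after their values were seen, are printed because they carry letters of the YY1 and ETS motifs and stand for members called in both directions. Each window runs over the 80 bases before and the 30 bases from the transcription start of RefSeq (GRCh38.p14) and is written on the gene's own strand. Capitals mark AAGATGGCG, the letters of a YY1 motif, in the first 3 and the ETS letters CCGGAAGT, read here on the other strand as ACTTCCGG, in the last. MRPS10 is at chr6:42217832-42217941, minus strand, MRPL42 at chr12:93467434-93467543, plus strand, MRPS18A at chr6:43687762-43687871, minus strand, and MRPS34 at chr16:1773105-1773214, minus strand. MRPS10 and MRPL42 were higher in the sgMLL3 libraries, and MRPS18A and MRPS34 were lower.
MRPS10: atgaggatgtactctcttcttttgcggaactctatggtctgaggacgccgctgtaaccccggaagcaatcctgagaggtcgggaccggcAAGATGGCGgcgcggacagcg
MRPL42: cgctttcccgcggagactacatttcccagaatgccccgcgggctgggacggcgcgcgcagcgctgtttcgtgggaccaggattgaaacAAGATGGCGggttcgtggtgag
MRPS18A: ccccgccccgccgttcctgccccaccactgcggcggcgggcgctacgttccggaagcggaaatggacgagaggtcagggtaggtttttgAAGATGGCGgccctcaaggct
MRPS34: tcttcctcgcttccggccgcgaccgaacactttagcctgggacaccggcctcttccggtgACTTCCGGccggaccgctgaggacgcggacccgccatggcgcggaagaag

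The YY1 letters began at base 10 after the start in MRPS10 and in MRPS18A and at base 9 in MRPL42. Over windows of 250 bases before and 50 after the start, searched on both strands, 13 of the 67 members with a window held them, or 19.4%, beside 4.46% of the 11021 tested genes with a window and 1.75% of all 35116 windows. Of the 13, 2 were higher, 1 was lower and 10 did not pass the test as deposited, where 18.9% of all genes tested were higher and 14.4% lower. With the trend along GC content and length removed these 3 calls were lost. Then 6 others of the 13 were lower, MRPL22, MRPL32, MRPL46, MRPL50, MRPL52 and MRPS30, where 5.95% of all genes tested and 22.4% of all members were. With the trend of each gene's principal transcript removed instead, as described further on, MRPL32, MRPL46, MRPL52 and MRPS30 lost this call. The ETS letters stood in 11 members, or 16.4%, beside 9.51% of tested genes and 4.14% of all windows. Of the 11, 1 was lower as deposited and 3 with the trend removed, beside the same shares of all genes. Whether the letters go with a call was not tested. The letters GCGCATGCG of NRF1, a regulator of mitochondrial genes, stood in 2 members, MRPL17 and MRPL22, or 2.99%, beside 4.09% of tested genes and 1.92% of all windows. A match of letters is a description and not a bound site.

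The 9 lower members of the large subunit, 18.75% of its 48 genes, are given by role. MRPL4, which lines the exit tunnel, had the lowest log2 fold change among the members that passed the test. It had 3014, 3090.2 and 3501 normalized counts in the sgMLL3 libraries, against 4083, 3839.5 and 4435 in the sgNT libraries (log2 fold change -0.36, SE 0.0892, adjusted p = 0.00568), so every sgMLL3 value was below every sgNT value. The gene lies at chr19:10251901-10260045, plus strand. MRPL24, at the rim of the tunnel, had 3686, 3668 and 3606 normalized counts in the sgMLL3 libraries, against 4644, 4184 and 4346 in the sgNT libraries (log2 fold change -0.26, SE 0.0807, adjusted p = 0.0191). MRPL23, at the same rim, had 2766, 2530.1 and 2749.8 normalized counts in the sgMLL3 libraries, against 3074, 3102 and 3319.9 in the sgNT libraries (log2 fold change -0.24, SE 0.0846, adjusted p = 0.0375), and neither gene had overlapping groups. Of the 8 members assigned to the tunnel, 3 were lower and none passed the test as higher, and so small a group was not compared with the 14.4% of all genes that were lower.

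MRPL10, MRPL11 and MRPL12 form the stalk base and the stalk that recruits the translation factors. MRPL11 had 3835, 3708 and 3579 normalized counts in the sgMLL3 libraries, against 4594, 4279.9 and 4358 in the sgNT libraries (log2 fold change -0.25, SE 0.0802, adjusted p = 0.0238). MRPL10 had 2396, 2355 and 2545 normalized counts in the sgMLL3 libraries, against 2794, 2879 and 2997 in the sgNT libraries (log2 fold change -0.25, SE 0.0844, adjusted p = 0.0309). Both were lower, with no overlap between the groups. MRPL12 had a log2 fold change of the same size but a larger error and did not pass the test (log2 fold change -0.26, SE 0.117, adjusted p = 0.0958), with 622, 588 and 726 normalized counts in the sgMLL3 libraries, against 834, 754 and 723 in the sgNT libraries. It was chosen after its values were seen, to complete the stalk. With the trend removed it turned to 0.02, adjusted p = 0.933, and MRPL10 and MRPL11 did not pass the test either (-0.13, adjusted p = 0.185 and -0.13, adjusted p = 0.211).

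MRPL49, a mitochondria-specific protein, was even among its sgMLL3 libraries. It had 5621, 5501 and 5580.4 normalized counts in the sgMLL3 libraries, against 6648, 6694 and 7404 in the sgNT libraries (log2 fold change -0.31, SE 0.0787, adjusted p = 0.00693), and it lies at chr11:65122183-65127371, plus strand. MRPL14, which sits on the face toward the small subunit, was the member with the highest mean. It had 11489.9, 10853 and 11190.3 normalized counts in the sgMLL3 libraries, against 12425, 12783 and 13800.4 in the sgNT libraries (log2 fold change -0.22, SE 0.0765, adjusted p = 0.0368). MRPL43, a mitochondria-specific protein, had 3673, 3714 and 4104 normalized counts in the sgMLL3 libraries, against 4524, 4256 and 4883 in the sgNT libraries (log2 fold change -0.25, SE 0.0854, adjusted p = 0.0326). MRPL21, which has a bacterial counterpart and is named because it completes the 9 lower genes, had 2152, 2076 and 1967 normalized counts in the sgMLL3 libraries, against 2658, 2271 and 2455 in the sgNT libraries (log2 fold change -0.25, SE 0.0908, adjusted p = 0.041). No sgMLL3 value of these 4 genes reached an sgNT value of the same gene.

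Members at the catalytic core and the central protuberance did not pass the test in either direction as deposited. The 4 members assigned to the peptidyl transferase core, MRPL2, MRPL3, MRPL16 and MRPL27, centred on -0.16 (median log2 fold change), and the 6 of the central protuberance on -0.13. MRPL38, a member of the protuberance, had the lowest log2 fold change of all 76 genes but the widest error (log2 fold change -0.44, SE 0.25, adjusted p = 0.181). It also had the lowest counts, 89.8, 64.7 and 81.7 normalized counts in the sgMLL3 libraries, against 114, 74.1 and 142 in the sgNT libraries, and its groups overlapped. MRPL39, at the exit tunnel, had the third highest value of the large subunit and did not reach the threshold (log2 fold change 0.27, SE 0.103, adjusted p = 0.0548). It had 1527, 1455 and 1283 normalized counts in the sgMLL3 libraries, against 1283, 1164 and 1099 in the sgNT libraries, and the lowest sgMLL3 value lay just under the highest sgNT value. With the trend along GC content and length removed, as described further on, MRPL27 of the core (-0.33, adjusted p = 0.00467) and MRPL52 and MRPL46 of the protuberance (-0.31, adjusted p = 0.00727 and -0.56, adjusted p = 0.0111) were lower.

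In the small subunit 3 genes were lower. MRPS34, a mitochondria-specific protein in which mutations cause Leigh syndrome, had 2485, 2607 and 2700.3 normalized counts in the sgMLL3 libraries, against 2977, 3093 and 3515 in the sgNT libraries (log2 fold change -0.30, SE 0.0892, adjusted p = 0.0178). MRPS26, also mitochondria-specific, had 3252, 3166 and 3202 normalized counts in the sgMLL3 libraries, against 3611, 3635 and 4098 in the sgNT libraries (log2 fold change -0.24, SE 0.0839, adjusted p = 0.039). The third was MRPS18A, which carries a small-subunit name but sits in the large subunit, with 1587, 1765 and 1752 normalized counts in the sgMLL3 libraries, against 2157, 1896 and 2082 in the sgNT libraries (log2 fold change -0.26, SE 0.0929, adjusted p = 0.0364). The groups of all 3 stood apart. Beside MRPS10, MRPL4 and MRPL49, the other 13 members called in either direction lost the call with at least 1 library left out, and their adjusted p then reached values between 0.0725 and 0.223.

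**Figure D2:**
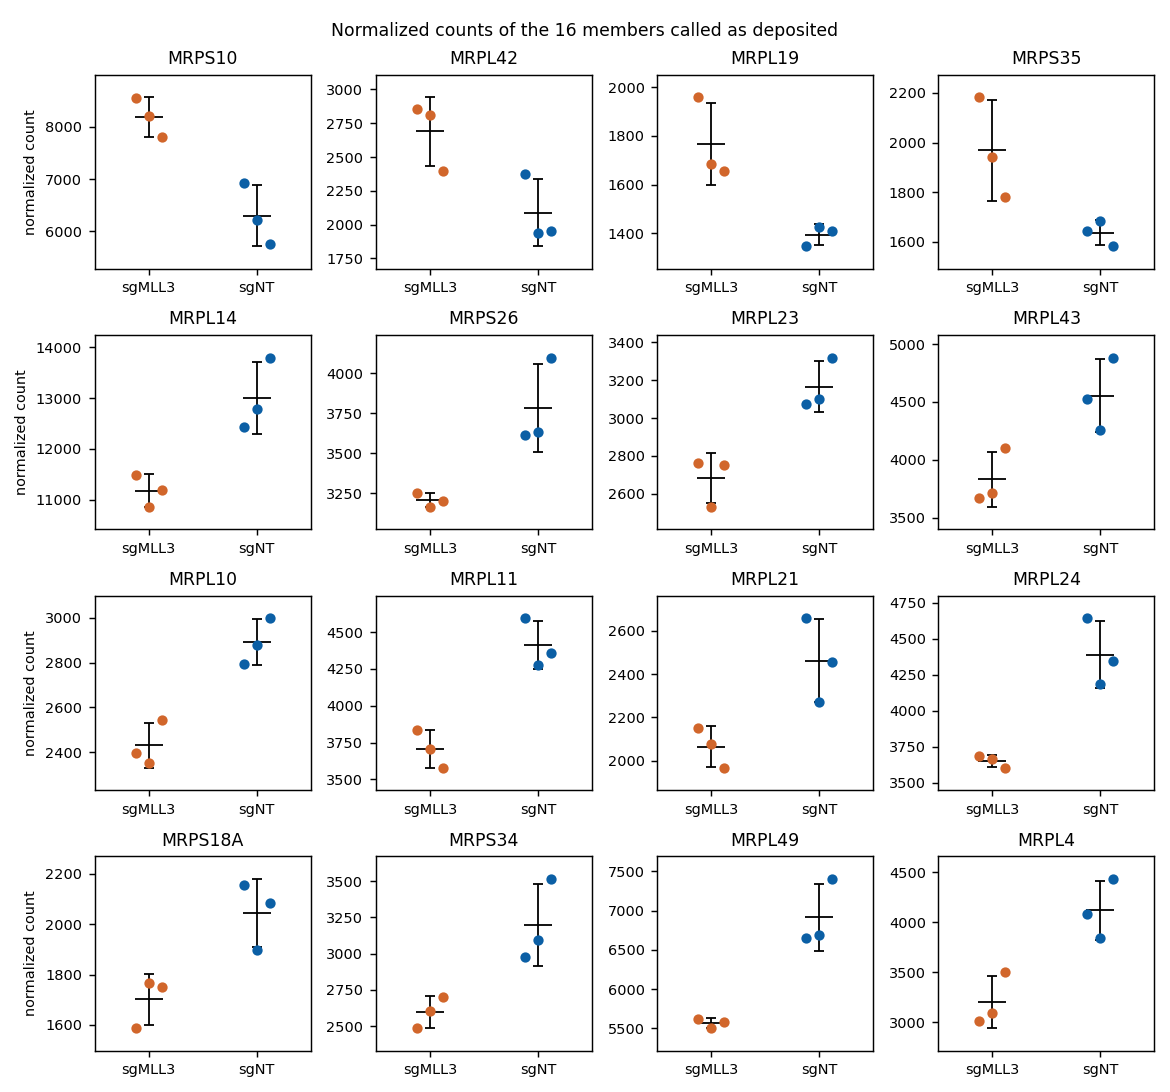
Normalized counts of the 16 members that passed the test, one panel a gene, with sgMLL3 libraries left (orange) and sgNT libraries right (blue). Points are single libraries, the short lines their mean and standard deviation (n = 3), and the axes do not start at 0. The first row holds the 4 higher genes and the other rows the 12 lower genes, and no panel has overlapping groups.

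Among the other small-subunit genes, MRPS9 of the head had the second highest log2 fold change and missed the threshold (log2 fold change 0.32, SE 0.124, adjusted p = 0.0524). It had 986, 889.8 and 1094 normalized counts in the sgMLL3 libraries, against 933, 773 and 677 in the sgNT libraries. MRPS24, which lies by the entry of the messenger RNA, had the lowest log2 fold change of the subunit, with a wide error (log2 fold change -0.33, SE 0.246, adjusted p = 0.32). It had 98.2, 106 and 172 normalized counts in the sgMLL3 libraries, against 104, 180.4 and 188 in the sgNT libraries, so the groups overlapped. Of the 15 small-subunit members with bacterial counterparts none was lower and 1 was higher, and of the 10 mitochondria-specific ones 2 were lower and 1 higher. In the large subunit, counted by place in the structure, these numbers were 7 lower and 1 higher of 30 with bacterial counterparts and 3 lower and 1 higher of 20 that are mitochondria-specific. Counted that way over a whole subunit, 10 of 50 large-subunit genes were lower and 2 higher, and 2 of 25 small-subunit genes were lower and 2 higher. Beside these counts, 14.4% of all genes tested were lower and 18.9% higher. No difference between these groups was tested.

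The symbols did not always name the place of the protein. MRPS30, which like MRPS18A sits in the large subunit, had 1648, 1503 and 1328 normalized counts in the sgMLL3 libraries, against 1512, 1638 and 1614 in the sgNT libraries and did not pass the test (log2 fold change -0.094, SE 0.0999, adjusted p = 0.495). MRPS18B, a small-subunit relative of MRPS18A, had 2869, 2948 and 2960.0 normalized counts in the sgMLL3 libraries, against 3419, 2995 and 3553 in the sgNT libraries (log2 fold change -0.18, SE 0.0876, adjusted p = 0.121). MRPS36 is a component of the alpha-ketoglutarate dehydrogenase complex and not a ribosomal protein. It had 1261, 1252 and 924 normalized counts in the sgMLL3 libraries, against 1079, 1035 and 1026 in the sgNT libraries (log2 fold change 0.12, SE 0.118, adjusted p = 0.474). Of these 3 genes none passed the test as deposited, whereas MRPS18A did.

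Levels per kilobase of merged exons spanned a wide range. In normalized counts per kilobase (mean ± SD, n = 3 each), the highest of the large subunit was MRPL14 with 11656 ± 332 in the sgMLL3 libraries and 13559 ± 744 in the sgNT libraries. MRPL41 came next with 4459 ± 94.4 in the sgMLL3 libraries and 4852 ± 352 in the sgNT libraries. The highest of the small subunit was MRPS10 with 3879 ± 180.3 in the sgMLL3 libraries and 2985 ± 276 in the sgNT libraries, and MRPS26 came next with 2846 ± 38.4 in the sgMLL3 libraries and 3355 ± 243 in the sgNT libraries. MRPL41, a mitochondria-specific protein, did not pass the test (log2 fold change -0.12, SE 0.0807, adjusted p = 0.265). The lowest were MRPL38 and MRPL46 in the large subunit, both of the central protuberance, at 25.8 and 52.4 over the 6 libraries, and MRPS24 and MRPS17 in the small subunit at 54.2 and 101. MRPS17, with a bacterial counterpart, had a log2 fold change of 0.056, the smallest in size among these 4, and 213, 224 and 225 normalized counts in the sgMLL3 libraries, against 167, 257 and 223 in the sgNT libraries. On their own strand, MRPL38 shares 1373 exonic bases with another annotated gene and MRPL46 shares 724. MRPS24 shares 606 with the readthrough gene URGCP-MRPS24, and MRPS17 shares 583 with neighbours including NIPSNAP2. MRPL2, at 127 per kilobase over the 6 libraries, shares none on its strand, and MRPL12, at 689, shares 701. In all, 39 members share exonic bases with another gene, 15 of them on the same strand and 28 on the other, and 32 have a named pseudogene. Among the called members, MRPL43 shares 1319 bases on the other strand, MRPL4 869, MRPL49 638 and MRPS18A 604, summed over the genes there. The other called members share fewer or none on that strand. How reads of shared bases were counted is not known, and the part of such sharing in these levels was not tested. Of the 39 members with shared bases 6 were lower and 2 higher, and of the 37 without 6 were lower and 2 higher. Beside them, 14.4% of all genes tested were lower and 18.9% higher, and the part of sharing in these calls was not tested.

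The changes followed the GC content of the transcripts. Spearman's rho between log2 fold change and the GC content of the longest GENCODE 29 transcript was -0.70 across the 76 members and -0.67 across 14598 genes tested. These points share the same 6 libraries, so the values are descriptions. The 4 higher members had GC contents between 38.3% and 41.6%, and the 12 lower members between 51.7% and 64.9%. When all tested genes were cut in 3 equal classes at 44.2% and 53.7% GC, the 25 members of the lowest class had a median log2 fold change of 0.13 with 4 higher and none lower, where the genes of that class had a median of 0.35 and 49.4% were higher. The 22 members of the highest class had a median of -0.23 with 9 lower, or 40.9%, where all genes of that class had a median of -0.24 and 34.3% were lower. The 4 higher members were 16% of their class. Neither difference in share was tested, and the cause of the trend along GC content was not tested.

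**Figure D3:**
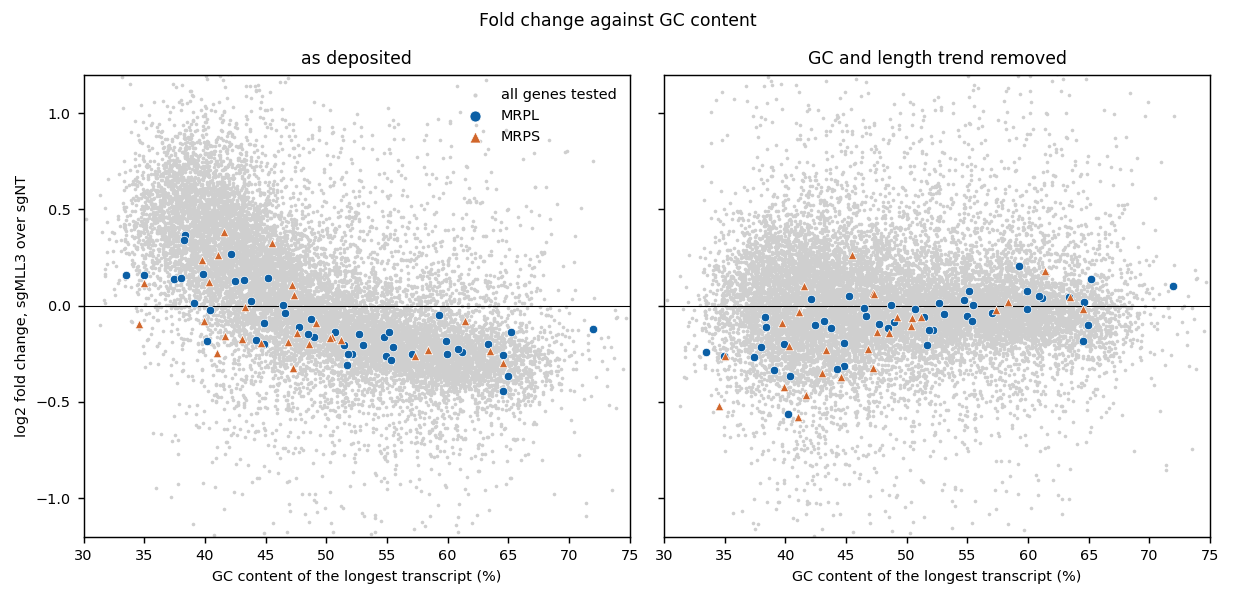
Log2 fold change, sgMLL3 over sgNT, against the GC content of the longest transcript, as deposited (left) and with the trend along GC content and length removed (right). Grey points are all genes tested, blue circles MRPL genes and orange triangles MRPS genes, and genes beyond the axes are not drawn. As deposited, members and other genes fall together as GC content rises (rho -0.70 across members), and with the trend removed the members rise with GC content (rho 0.63) while all genes do not (rho -0.028).

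Removing the trend along GC content and length from each library changed which members passed the test. It left the members with a relation to GC content of nearly the same strength in the opposite direction, with a rho of 0.63 across the 76 members, 0.66 in the large and 0.57 in the small subunit, beside -0.028 across all genes. Their rho with transcript length was -0.51, beside -0.010 across all genes. With the trend removed, 17 members were lower, or 22.4%, against 5.95% of all genes tested, and none was higher, against 4.08%. Of the 17, 9 were named for the large and 8 for the small subunit, and the median log2 fold changes over all 48 and all 28 genes were -0.070 and -0.098, beside -0.018 over all genes tested. Only MRPL49 was lower in both analyses (-0.20, adjusted p = 0.0289 with the trend removed), and 44 of the 76 members passed the test in neither. With the trend removed and 1 library left out, MRPL49 lost its call in 5 of 6 fits, with an adjusted p of up to 0.129. The sign differed between the analyses in 32 members, 16 of which lay above zero as deposited and 16 below. MRPS10, MRPL42, MRPL19 and MRPS35 had log2 fold changes of 0.10, -0.11, -0.062 and -0.033 with the trend removed, and none of them passed the test. Counted without a test, the trend-removed values of the groups did not overlap in 29 lower and 2 higher members, where 17.7% and 13.2% of all genes tested did so.

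The members lower with the trend removed had GC contents between 34.5% and 51.7%, with a median of 41.0%, and 12 of them belonged to the class of lowest GC content. They are named for this call and with their values seen. MRPS33, a mitochondria-specific small-subunit protein, had 2126, 1941 and 1925 normalized counts in the sgMLL3 libraries, against 2217, 2237 and 2230.4 in the sgNT libraries. Its log2 fold change was -0.16 as deposited and -0.47, adjusted p = 0.00203 with the trend removed. MRPS14 of the small subunit's head had 1441, 1449 and 1329 normalized counts in the sgMLL3 libraries, against 1623, 1404 and 1433 in the sgNT libraries, with -0.079 as deposited and -0.42, adjusted p = 0.00449 with the trend removed. The groups of MRPS33 did not overlap as deposited, and those of MRPS14 did.

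MRPL22, which meets MRPL4 at the narrow point of the exit tunnel, had 2947, 2539.9 and 2464 normalized counts in the sgMLL3 libraries, against 2842, 2717 and 2495 in the sgNT libraries. As deposited its log2 fold change was -0.021, and with the trend removed it was -0.37, adjusted p = 0.00355. MRPS23, a mitochondria-specific small-subunit protein, had 3352, 3079 and 2820.5 normalized counts in the sgMLL3 libraries, against 3447, 3536 and 3598 in the sgNT libraries, with -0.20 as deposited and -0.37, adjusted p = 0.00672 with the trend removed. MRPS16, mutated in a combined oxidative phosphorylation deficiency, had 4050.0, 4038 and 4066 normalized counts in the sgMLL3 libraries, against 4798, 4383 and 4694 in the sgNT libraries, with -0.19 as deposited and -0.22, adjusted p = 0.0256 with the trend removed. For MRPL22, MRPS14, MRPS23 and MRPS33 the call held with any 1 library left out, with adjusted p-values of at most 0.0359, 0.0423, 0.0499 and 0.0257. MRPL27 and MRPS30 held in the same way, and the other 11 did not. Without sgNT replicate 1, 19 members were lower and 5 higher, where 14.5% of all genes were lower and 10.2% higher. Without sgNT replicate 2 or 3, 9 members were lower, where 3.01% and 3.50% of all genes were. Without sgMLL3 replicate 1, 2 or 3, the members lower were 6, 7 and 8, where 1.73%, 1.82% and 2.60% of all genes were, and none was higher in these last 5 fits.

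These calls also depended on which transcript stood for a gene. The longest annotated transcript of MRPS30 had a GC content of 34.5%, and its principal transcript 46.4%. With the trend taken along the principal transcript of each gene, an alternative added after the values were seen, 10 members were lower and none higher, where 5.4% and 3.98% of all genes tested were. All 10 were among the 17, namely MRPL1 of the L1 stalk, MRPL22, MRPL47 at the exit tunnel, MRPL49 and MRPL50 in the large subunit and MRPS14, MRPS16, MRPS23, MRPS28 and MRPS33 in the small subunit. MRPS30 was lower with its longest transcript (-0.52, adjusted p = 0.00156) and not with its principal one (-0.15, adjusted p = 0.252). MRPL27, MRPL32, MRPL46, MRPL52, MRPS6 and MRPS27 were lost in the same way. MRPL46 had the second largest change of the 17 (-0.56, adjusted p = 0.0111) and almost none with its principal transcript (-0.04, adjusted p = 0.86). As deposited, MRPL1, MRPL32, MRPL47 and MRPL50 lay above zero, at 0.012, 0.14, 0.15 and 0.16, and did not pass the test. Every sgMLL3 value of MRPL32 was above every sgNT value as deposited. The rest of the 17 lay below zero as deposited.

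**Figure D4:**
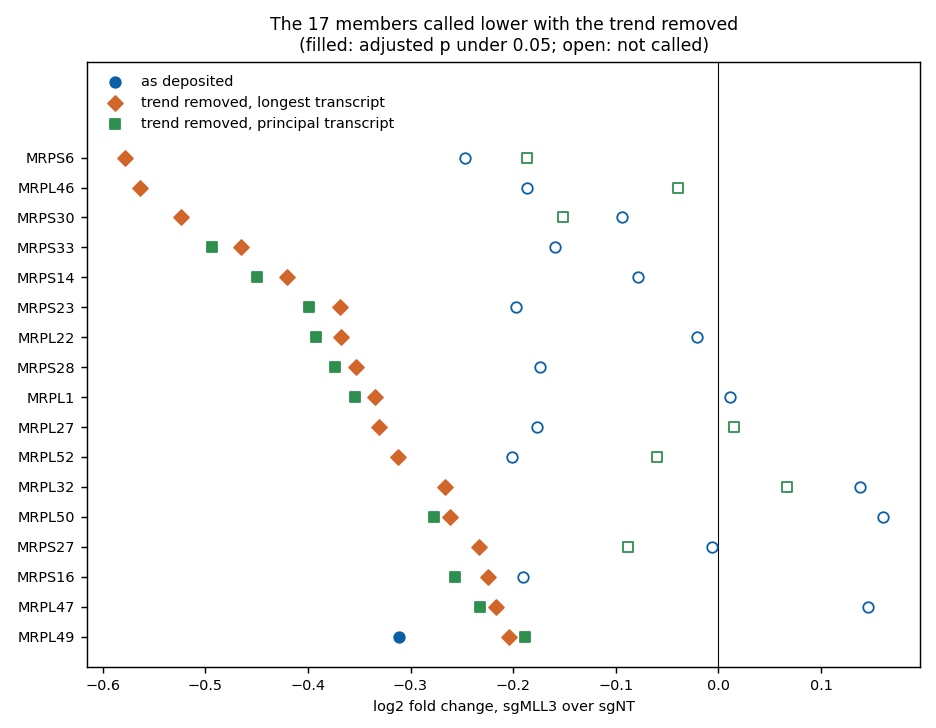
Log2 fold change, sgMLL3 over sgNT, of the 17 members lower with the trend removed, one gene a row. Blue circles are values as deposited, orange diamonds values with the trend of the longest transcript removed, green squares values with the trend of the principal transcript removed, and filled symbols passed the test at 0.05. Only MRPL49 is filled in blue, and 10 genes are filled in green.

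The median levels of both subunits lay lower in each sgMLL3 library than in any sgNT library, a description with no test. A library's median log2 deviation of the large-subunit genes from their mean over the 6 libraries was -0.0082, -0.10 and -0.095 in the sgMLL3 libraries, against 0.11, 0.015 and 0.057 in the sgNT libraries. For the small-subunit genes it was -0.0078, -0.087 and -0.073 in the sgMLL3 libraries, against 0.058, 0.015 and 0.068 in the sgNT libraries. sgMLL3 replicate 1 and sgNT replicate 2 lay nearest to zero within their groups in both subunits. With the trend removed the groups of library medians still did not overlap in either subunit, but neither did the medians over all genes tested, which were -0.0024, -0.0079 and -0.012 in the sgMLL3 libraries and 0.014, 0.014 and 0.012 in the sgNT libraries. As deposited, the medians over all genes tested overlapped between the groups. The share of all normalized counts that went to the 76 genes was 0.454%, 0.430% and 0.426% in the sgMLL3 libraries and 0.472%, 0.441% and 0.446% in the sgNT libraries, and these ranges overlap.

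The summed counts of the large subunit over those of the small subunit were 2.04, 2.01 and 2.02 in the sgMLL3 libraries, against 2.13, 2.10 and 2.09 in the sgNT libraries. The sgMLL3 values all lay below the sgNT values, but the separation rested on MRPS10. Without this gene the ratios were 2.35, 2.31 and 2.30 in the sgMLL3 libraries and 2.38, 2.33 and 2.28 in the sgNT libraries, and the groups overlapped. This ratio was computed after the values were seen and was not tested.

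**Figure D5:**
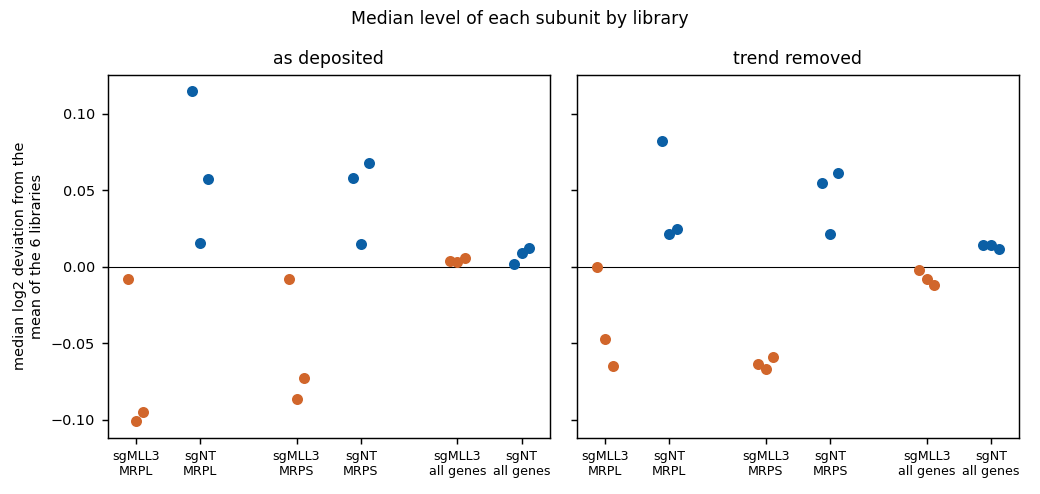
Median log2 deviation from the mean of the 6 libraries, for the MRPL genes, the MRPS genes and all genes tested, as deposited (left) and with the trend removed (right). Each point is 1 library, sgMLL3 in orange and sgNT in blue. In both subunits every sgMLL3 point lies below every sgNT point, and sgMLL3 replicate 1 of the MRPL genes is close to zero in both panels.

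The genes lay on 21 chromosomes, and the 12 lower members on 8 of them. Chromosome 11 held 7 members, of which MRPL11, MRPL21, MRPL23 and MRPL49 were lower, where 20.9% of the tested genes of that chromosome were lower. Chromosome 2 held 7 members, of which none was lower and MRPL19 was higher, where 8.04% of its tested genes were lower and 27.7% higher. On chromosome 6, MRPS10 was higher and MRPL14 and MRPS18A were lower among 6 members. Of the tested genes of that chromosome, 23.5% were higher and 11.2% lower.

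Of 6 further mitochondrial ribosomal proteins with other symbols, 1 was lower and 1 higher as deposited, where 14.4% and 18.9% of all genes tested were. PTCD3, a small-subunit protein with pentatricopeptide repeats, had 5197, 4946 and 4636 normalized counts in the sgMLL3 libraries, against 4111, 3977 and 3230.1 in the sgNT libraries and was higher (log2 fold change 0.39, SE 0.0952, adjusted p = 0.00541), but did not pass the test with the trend removed (0.13, adjusted p = 0.24). AURKAIP1, a small-subunit protein, had 5451, 5354 and 5836 normalized counts in the sgMLL3 libraries, against 6734, 6230.2 and 6881 in the sgNT libraries and was lower (log2 fold change -0.25, SE 0.0798, adjusted p = 0.0219), but not with the trend removed (0.0093, adjusted p = 0.944). DAP3, the GTP-binding protein of the small subunit, had a log2 fold change of 0.027, adjusted p = 0.818, and GADD45GIP1 of the large subunit one of -0.17, adjusted p = 0.114. CHCHD1 and MRPS18C did not pass the test as deposited (-0.15, adjusted p = 0.184 and -0.14, adjusted p = 0.297) and were lower with the trend removed (-0.28, adjusted p = 0.0187 and -0.52, adjusted p = 0.00232).

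Other genes of mitochondrial translation were taken from lists. Of 12 translation factors 7 were higher and 1 lower, with a median log2 fold change of 0.38. Of all genes tested, 18.9% were higher and 14.4% lower. In the class of lowest GC content 49.4% of all genes were higher, with a median of 0.35. GFM1, the elongation factor of translocation, had 2194, 2055 and 2048 normalized counts in the sgMLL3 libraries, against 1607, 1468 and 1366 in the sgNT libraries (log2 fold change 0.51, SE 0.0938, adjusted p = 0.000805), and MTIF2, the initiation factor that brings the first transfer RNA, had 2255, 2041 and 1984 normalized counts in the sgMLL3 libraries, against 1707, 1325 and 1125 in the sgNT libraries (log2 fold change 0.61, SE 0.123, adjusted p = 0.00139). TUFM, the elongation factor that delivers transfer RNAs, had 9186, 9295 and 10285 normalized counts in the sgMLL3 libraries, against 11525, 10889 and 12413 in the sgNT libraries and was lower (log2 fold change -0.28, SE 0.081, adjusted p = 0.0156). With the trend removed none of the 12 passed limma's test. The median GC content of the list was 42.2%, beside 47.7% for the 76 ribosomal protein genes.

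Of 26 assembly and ribosomal RNA modification factors 3 were higher and 4 lower, where 18.9% of all genes tested were higher and 14.4% lower. METTL15, a methyltransferase of the small subunit's RNA, was higher (log2 fold change 0.74, SE 0.133, adjusted p = 0.000637), as was MTERF3 (log2 fold change 0.41, SE 0.105, adjusted p = 0.00788), and RCC1L and DDX28, both assembly factors of the ribosome, were lower (log2 fold change -0.33, SE 0.0838, adjusted p = 0.00757 and log2 fold change -0.33, SE 0.0994, adjusted p = 0.017). After removal of the trend 2 of the 26 were lower, where 5.95% of all genes tested were. They were MALSU1 and NGRN, both named after their values were seen. MALSU1 binds MRPL14 and keeps the free large subunit silent (-0.43, adjusted p = 0.00234), and NGRN is an assembly factor (-0.25, adjusted p = 0.0176). Of the 18 tested aminoacyl-tRNA synthetases and related enzymes 3 were higher and none lower, beside the same 18.9% and 14.4% of all genes. IARS2 (0.34, adjusted p = 0.00619) and WARS2 (0.41, adjusted p = 0.0114) led them. With the trend removed none of the 18 passed the test.

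LRPPRC, which stabilizes mitochondrial messenger RNAs, was higher both as deposited (log2 fold change 0.66, SE 0.0894, adjusted p = 7.21e-05) and with the trend removed (0.37, adjusted p = 0.00288). Its partner SLIRP, chosen after its values were seen, was not called as deposited (-0.19, adjusted p = 0.121) and was lower with the trend removed (-0.52, adjusted p = 0.00212). TACO1, an activator of translation, was lower as deposited (-0.33, adjusted p = 0.00841). These were the 3 genes of a list of 5 for messenger RNA handling that passed in either analysis. Of 13 regulators of mitochondrial gene expression 3 were higher and 1 lower, where 18.9% and 14.4% of all genes tested were. Among them were TFAM, the packaging factor of mitochondrial DNA (log2 fold change 0.49, SE 0.0905, adjusted p = 0.000829), GABPA, which binds the ETS letters (log2 fold change 0.48, SE 0.11, adjusted p = 0.0035), and POLRMT, the mitochondrial RNA polymerase (log2 fold change -0.26, SE 0.09, adjusted p = 0.0333). YY1 and NRF1, chosen for the motifs above, had log2 fold changes of 0.038, adjusted p = 0.742 and -0.14, adjusted p = 0.269. With the trend removed none of the 13 passed the test.

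Beside the 76 genes, 28 of 83 cytosolic ribosomal protein genes were lower and 2 higher, with a median log2 fold change of -0.16. Of 75 nuclear genes for oxidative phosphorylation subunits 12 were lower and none higher, with a median of -0.12. The share over all genes was 14.4% lower and 18.9% higher. With quantile normalization 6 of the 83 cytosolic genes were lower, where 15.4% of all genes were. Without sgMLL3 replicate 1, 2 or 3 the cytosolic genes lower numbered 12, 2 and 9, and without sgNT replicate 2 or 3 they numbered 12 and 11. The oxidative phosphorylation genes lower numbered 6, 2 and 8 without sgMLL3 replicate 1, 2 or 3, and 4 without sgNT replicate 3. With the trend removed the numbers were 30 lower and 1 higher of 83 and 22 lower and none higher of 75. Of all genes, 5.95% were then lower and 4.08% higher. The median levels of these families differ widely, at 2371 normalized counts for the mitochondrial and 27121 for the cytosolic ribosomal protein genes, and their counts of calls were not compared by a test.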

How the data were processed

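RNA-seq of 6 libraries of one cell line was analysed, 3 sgMLL3 and 3 sgNT. Per the submitters' processing notes, the named build is GRCh38.p13 and the named tools are DESeq2 1.30.1, featureCounts 1.5.0, STAR 2.4.0 and FastQC. Annotation, strand setting and filters: not given in the sources used here. Signal columns deposited by the authors hold normalized counts, reads per gene divided by 1 size factor per library. The authors' deposited table also gives a log2 fold change with its error, a Wald score, and a p-value with its adjusted p-value for each gene.

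All values were whole reads within 0.01 once multiplied by the library's size factor (100% of values in each library), which gave 41240265 to 49514464 reads per library. Differences were tested with limma 3.58.1 under R 4.3.3, fitting log2(normalized count + 1) with a variance that follows the mean, for 14618 genes with a mean of at least 10, adjusted by Benjamini-Hochberg at 0.05. Fold changes on that scale understate the change of low genes. The count test of edgeR 4.0.16 on the recovered reads called 2230 genes lower and 2682 higher. DESeq2 1.42.0 was a further alternative. GC content and length of the longest GENCODE 29 transcript were available for 14598 tested genes, and their trend was removed from each library by natural splines with 5 terms each. Other alternatives were pseudocounts, filters, quantile normalization, TMM scaling, a replicate block, leaving out each library and the subunit by structure. The authors' deposited values and the trend of the principal transcript were added after seeing the data. The scripts were tested on simulated data.

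The members and lists were chosen with earlier results of these data known. Named were, in each subunit, up to 8 called members per direction, the 3 highest and the 3 lowest log2 fold changes, the 2 highest and the 2 lowest levels per length, 4 genes whose place or relatives differ from their symbol, 6 ribosomal genes with other symbols, KMT2C, and up to 2 called genes per direction of each further list. Other genes are named with their values seen. MRPL53 was not analysed here.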

Additional observations from a re-analysis of the deposited data

How the results depend on the processing

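The counts of lower and higher members and the median log2 fold change of each subunit stayed within 1.5 times, or within the spread of the libraries, under both other pseudocounts, no filter, a mean of at least 50, TMM scaling, edgeR, DESeq2, the authors' deposited table and the subunit by structure. Quantile normalization gave 5 small-subunit genes lower and 1 higher, and turned MRPS17 to -0.053. With the GC and length trend removed, no large-subunit gene was higher and the median was -0.070, and 8 small-subunit genes were lower, 0 higher, with a median of -0.098. The trend of the principal transcript gave 5 lower, 0 higher and a median of -0.072 in the large subunit, and 5 lower, 0 higher and a median of -0.056 in the small subunit. The cause of these differences was not tested. Same-numbered libraries correlated at 0.066, 0.0063 and 0.13 in their deviations from the group means. Differently numbered ones correlated between -0.099 and 0.027, below the values for numbers 1 and 3. The main fit did not take the numbers to pair the libraries, and a pairing is not excluded. With the replicate block, 16 large-subunit and 6 small-subunit genes were lower, where 20.7% of all genes were lower, beside 14.4% without it. The replicate block with the trend removed gave 0 higher and a median of -0.070 in the large subunit, and 7 lower, 0 higher and a median of -0.098 in the small subunit.

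Log2 fold changes that turned sign are given with the trend of the longest transcript removed, which the replicate block left as it was, and then with that of the principal transcript. They were -0.062 and -0.080 for MRPL19, -0.11 and -0.10 for MRPL42, -0.033 and -0.065 for MRPS35, 0.037 and 0.045 for MRPL23, 0.020 and 0.023 for MRPL12, 0.042 and 0.044 for MRPS26, and 0.10 and 0.096 for MRPL41. They were 0.0093 and 0.011 for AURKAIP1, 0.083 and 0.071 for GADD45GIP1, -0.019 and -0.055 for DAP3, -0.26 and -0.27 for MRPS36, and -0.039 and -0.043 for KMT2C. MRPL14 turned to 0.0015 with the longest transcript, and MRPL39 to -0.0056 and YY1 to -0.0035 with the principal one.

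With 1 library left out, as deposited or with the trend removed, between 2 and 9 large-subunit genes were lower and between 0 and 5 higher, and the median lay between -0.18 and -0.050. In the small subunit between 0 and 10 were lower and between 0 and 4 higher, with a median between -0.17 and -0.082. Log2 fold changes that turned sign in at least 1 such setting lay between -0.028 and 0.53 for GABPA, -0.12 and 0.38 for MRPL19, -0.18 and 0.46 for MRPL42, -0.34 and 0.011 for MRPS34, -0.32 and 0.029 for MRPS18A, -0.26 and 0.066 for MRPL23, -0.35 and 0.097 for MRPL12, -0.31 and 0.068 for MRPL21, -0.41 and 0.029 for MRPL22, -0.25 and 0.017 for MRPL14, -0.27 and 0.10 for MRPS26. They lay between -0.072 and 0.33 for MRPS35, -0.16 and 0.19 for MRPL41, -0.33 and 0.26 for MRPS36, -0.13 and 0.20 for MRPS17, -0.30 and 0.044 for AURKAIP1, -0.21 and 0.16 for GADD45GIP1, -0.043 and 0.053 for DAP3, -0.079 and 0.25 for KMT2C, -0.020 and 0.065 for YY1, -0.34 and 0.019 for KRT19. The genes listed are again only a part of those that turned sign. Each of these ranges joins the fits as deposited with those with the trend removed. Of the MRPL and MRPS genes in them, only MRPL22 and MRPS17 turned sign among the fits as deposited. MRPL42 stayed between 0.32 and 0.46 as deposited and between -0.18 and -0.055 with the trend removed. For MRPL19 the bounds were 0.26 and 0.38 as deposited, and -0.12 and -0.0066 with the trend removed. MRPL38, MRPS24 and MRPS17, with the fewest counts of the members, had the widest errors.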
